A study of Mus musculus with 6 samples.

Results

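The voltage-gated and potassium ion channel genes were taken by name alone from the deposited gene symbols, with no measured value used. A gene belonged when its symbol was Kcn with a family letter and a number, Kcnip, Kcnmb or Kcnma with a number, Scn with a number and a or b, or Cacna, Cacnb or Cacng with a number. This took 84 of the 19616 genes in the table, of which 59 encode potassium channel subunits, 17 voltage-gated calcium channel subunits and 7 sodium channel subunits. The other gene is Kcnq1ot1, a long non-coding RNA transcribed from inside the Kcnq1 gene in the opposite direction, which shares the name and encodes no channel. Kcne2, Kcnq3, Kcnq5, Scn2a and Scn9a were not analysed here.

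RNA was sequenced from jejunal intestinal epithelial cells (IEC) enriched with EDTA from 3 wild-type control mice, C1, C3 and C3-3, and 3 villin-Cre Hdac1-/-; Hdac2-/- mice, H1, H5 and H9. All 6 mice were 3 months old, the strain background was C57BL/6J X 129SV X CD1, and each mouse gave 1 library. The villin promoter drives Cre, and so the deletion of the histone deacetylase genes Hdac1 and Hdac2, in the intestinal epithelium, so that muscle, nerve, immune and other cells carried into a preparation keep both genes. The comparison asks which genes differ in expression between the epithelium of these 2 groups, which are called control and Hdac1/2-deleted below.

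Ion channels are pores in the membrane that open with voltage, calcium, sodium, acid or signals inside the cell. Each channel is built from pore-forming alpha subunits, with beta, KCNE, alpha2delta or gamma subunits that alter its gating and its delivery to the membrane. In intestinal epithelium, basolateral potassium channels such as Kcnq1 with Kcne3, Kcnn4 and Kcnk5 let potassium out of the cell and so hold the electrical driving force for chloride secretion and for nutrient uptake with sodium. Voltage-gated sodium and calcium channels are known in the gut from nerve, muscle and enteroendocrine cells, in which calcium entry releases hormones, and many of the other channels are studied mainly in brain, heart, sperm or muscle.

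RefSeq promoter windows, 250 bases before to 50 after a transcription start on GRCm38.p6, were matched by symbol to 57 of the 84 genes. Printed 5′ to 3′ with CpG dinucleotides in capitals are those of the 4 genes with a single window and the largest rise in Hdac1/2-deleted IEC, followed by that of Kcnj2, the single-window gene with the largest fall, so that the start regions of genes described below can be compared. The windows lie at chrX:142306149-142306448 on the minus strand, chr1:140245468-140245767 on the plus strand, chr7:143296498-143296797 and chr17:83631846-83632145 on the minus strand and chr11:111065914-111066213 on the plus strand.
Kcne1l: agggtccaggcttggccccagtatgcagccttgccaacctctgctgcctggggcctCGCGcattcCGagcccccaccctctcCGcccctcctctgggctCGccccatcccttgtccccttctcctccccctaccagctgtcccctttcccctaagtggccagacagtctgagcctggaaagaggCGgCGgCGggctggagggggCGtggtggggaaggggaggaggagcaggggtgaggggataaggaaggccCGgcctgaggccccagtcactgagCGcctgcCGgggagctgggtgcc
Kcnt2: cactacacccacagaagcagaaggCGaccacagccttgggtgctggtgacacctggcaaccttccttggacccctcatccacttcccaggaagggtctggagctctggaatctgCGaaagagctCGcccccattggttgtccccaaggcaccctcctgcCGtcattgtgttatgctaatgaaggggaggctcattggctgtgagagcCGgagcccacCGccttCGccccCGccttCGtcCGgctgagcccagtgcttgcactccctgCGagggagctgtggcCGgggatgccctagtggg
Kcnq1ot1: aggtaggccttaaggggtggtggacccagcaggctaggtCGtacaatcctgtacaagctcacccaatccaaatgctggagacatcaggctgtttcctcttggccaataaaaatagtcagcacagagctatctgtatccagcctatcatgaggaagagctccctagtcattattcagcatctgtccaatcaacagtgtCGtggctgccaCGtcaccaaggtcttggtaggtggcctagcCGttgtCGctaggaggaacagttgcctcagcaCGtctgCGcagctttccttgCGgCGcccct
Kcng3: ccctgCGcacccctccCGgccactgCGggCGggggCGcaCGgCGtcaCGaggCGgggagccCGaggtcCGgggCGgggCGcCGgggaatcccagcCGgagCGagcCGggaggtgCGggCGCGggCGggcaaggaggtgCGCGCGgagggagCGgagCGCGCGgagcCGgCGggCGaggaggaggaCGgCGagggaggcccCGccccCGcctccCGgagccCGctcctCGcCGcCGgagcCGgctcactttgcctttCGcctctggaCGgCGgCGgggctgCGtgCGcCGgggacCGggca
Kcnj2: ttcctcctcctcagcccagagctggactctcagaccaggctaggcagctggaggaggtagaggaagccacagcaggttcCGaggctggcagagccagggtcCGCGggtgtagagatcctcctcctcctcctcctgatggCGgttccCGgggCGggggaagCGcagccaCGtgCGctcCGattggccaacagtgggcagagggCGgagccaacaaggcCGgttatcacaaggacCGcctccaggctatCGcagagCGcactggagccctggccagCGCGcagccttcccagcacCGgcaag

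The window of Kcng3 holds 49 CpG dinucleotides, an observed to expected ratio of 0.991, which is above that of 93.5% of the 32851 windows in the table. Those of Kcne1l, Kcnt2 and Kcnq1ot1 hold 12, 12 and 9, with ratios of 0.330, 0.409 and 0.423 beside a median of 0.384 over all windows. The window of Kcnj2, which fell, holds 18 with a ratio of 0.540. The genes that rose thus included both CpG-rich and ordinary start regions. The GC box GGGCGG, searched on both strands, occurred in a window of 37 of the 57 matched channel genes (64.9%) and of 38.2% of all 27025 genes, a number that also depends on how many starts a gene has. It was present for 7 of the 9 matched genes that rose (77.8%), all 3 that fell, and 13 of the 18 tested and not called (72.2%). Cacna1c and Kcnk10, which fell, have several windows, and not every window of each holds it. The left part TTCAGCACC of the RE1 element, bound by the repressor REST, also searched on both strands, was found in a window of 1 channel gene, Kcnh6, and of 0.433% of all genes.

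Total counts ranged from 36111035 to 65902344 per mouse, so that the floor of 3 counts, below which no level is read, stands at 0.0405 to 0.0790 CPM, counts scaled to a common library size, and covers counting error only. The scaling uses library total and TMM factor. A gene is called increased or decreased below where edgeR's quasi-likelihood test gave an adjusted p of 0.05 or less together with a change of 2-fold or more. Hdac1 fell from 2592, 1916 and 2596 counts in controls to 294, 96 and 296 in H1, H5 and H9 (log2 fold change -3.43, edgeR adjusted p = 2.9e-05), whereas Hdac2 mRNA had 2176, 1313 and 1408 against 1971, 964 and 1319 counts (-0.18, adjusted p = 0.44). Counts over the whole gene thus check the label for Hdac1 and leave its Hdac2 part unchecked, since reads outside a deleted stretch are counted too, and the group's name is that of the labels. The 12 epithelial markers, Epcam and Vil1 among them, summed to 24139 to 26885 CPM in controls and 19135 to 22188 CPM in Hdac1/2-deleted mice. Libraries C1 and C3 stood apart in 8 smooth muscle markers, which summed to 75.7 and 58.3 CPM there, to 3.22 CPM in C3-3 and to 0.459 to 0.601 CPM in the Hdac1/2-deleted mice. C3 alone also held Y-linked transcripts beyond a few reads, with 3082 counts over 4 genes against 1 to 13 in the others.

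Of the 84 genes, 49 had enough reads to be tested. Hdac1/2-deleted IEC had increased RNA of 18 of them and decreased RNA of 4, and 27 met neither limit. The share increased was 36.7%, beside 12.4% of all 15618 genes tested, and the share decreased was 8.16%, beside 12.7%. A positive log2 fold change was found for 33 and a negative one for 16, with a median of 0.44 over the channel genes and -0.0081 over all genes tested. The channel median depended on the filter and on single mice. With no low-count filter it was 0.049 over all 84 genes, beside -0.015 over all genes. Leaving out 1 mouse, which also changed the genes tested, gave 0.092 without H1 to 0.578 without C1. Of the 18 increased genes, 9 were above the filter of 0.163 CPM in every mouse of both groups. The other 9 were above it in every Hdac1/2-deleted mouse but not in every control, so that their controls alone would not have let them be tested. Likewise 2 of the 4 decreased genes, Cacna1c and Kcnj2, were above it in every control but not in every Hdac1/2-deleted mouse. These counts therefore describe the genes and do not show that channel genes as a group rose. The levels of the groups did not overlap for 21 genes higher and 8 lower in Hdac1/2-deleted mice, where 26.7% and 26.6% of all genes tested did not overlap. Fitted without C1 and C3, an alternative chosen after seeing the data that left C3-3 as the only control, 13 of the 18 were still called increased, and Cacna1a, Cacnb1, Kcnk6 and Kcnt1 were among those that were not.

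**Figure D1:**
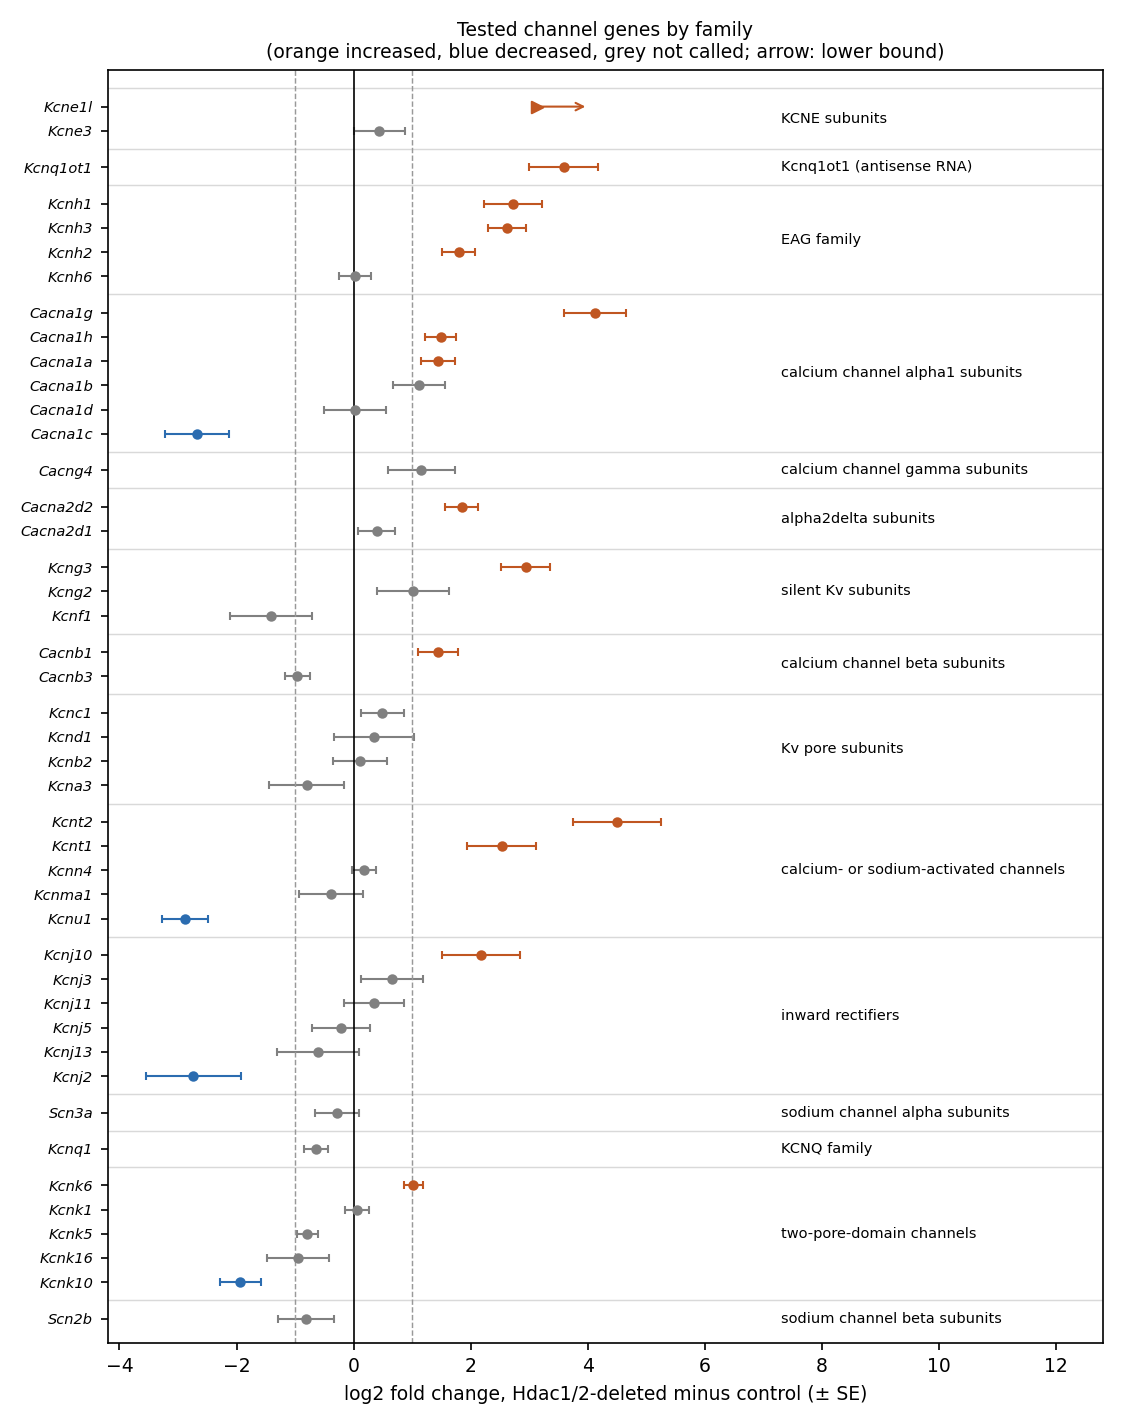
The log2 fold change (x axis, Hdac1/2-deleted minus control) with its standard error for 44 of the tested genes, in rows grouped by family. Orange points mark 15 increased genes, blue the 4 decreased and grey 25 called neither; dashed lines stand at 2-fold, and the arrow of Kcne1l starts at its lower bound of 8.74-fold. Kcnh1, Kcnh2 and Kcnh3 of the EAG family and the T-type genes Cacna1g and Cacna1h lie to the right, Kcnh6 lies near 0, and Kcnu1, Kcnj2, Cacna1c and Kcnk10 to the left.

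The channel RNA of the preparation came mostly from a few potassium channel genes. The 6 genes with a mean of at least 10 CPM made up 85.3% of the summed channel CPM in controls and 78.7% in Hdac1/2-deleted mice. The sum over all 84 genes was 309 to 421 CPM in controls and 258 to 347 CPM in Hdac1/2-deleted mice, which overlap, whereas the sum over the genes under that limit was 51.4 to 54.8 CPM and 61.3 to 71.7 CPM, which do not.

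Kcnk5 (TASK-2), a two-pore-domain channel opened by alkaline conditions outside the cell, was the most abundant (ENSMUSG00000023243, chromosome 14, 20140057 to 20181809). It had 205, 138 and 167 CPM in control mice C1, C3 and C3-3 and 109.7, 94.7 and 90.2 CPM in Hdac1/2-deleted mice H1, H5 and H9. No Hdac1/2-deleted mouse reached the lowest control (log2 fold change -0.79, SE 0.17, edgeR adjusted p = 0.0061), a change past the adjusted p limit but under 2-fold. Kcnq1, the pore subunit that joins with Kcne3, had 61.1, 45.0 and 56.5 CPM in the control mice and 35.7, 42.8 and 26.0 CPM in the Hdac1/2-deleted mice (log2 fold change -0.64, SE 0.20, edgeR adjusted p = 0.032), again lower in all 3 mice and under 2-fold. Its exons overlap those of Kcnq1ot1 on the other strand, and the strand setting of the counting is not given in the sources used here.

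Kcne3, the subunit that holds Kcnq1 open, had 31.5, 14.9 and 20.3 CPM in the control mice and 48.1, 25.9 and 16.2 CPM in the Hdac1/2-deleted mice, and the groups overlapped (log2 fold change 0.44, SE 0.43, edgeR adjusted p = 0.46, 95% interval -0.59 to 1.46). Kcnn4, the intermediate-conductance channel opened by calcium, had 31.2, 22.2 and 30.5 CPM in the control mice and 35.6, 35.3 and 24.2 CPM in the Hdac1/2-deleted mice (log2 fold change 0.18, SE 0.20, edgeR adjusted p = 0.50, 95% interval -0.28 to 0.64). Kcnk1 (TWIK-1) had 27.4, 23.0 and 24.9 CPM in the control mice and 28.1, 31.6 and 18.8 CPM in the Hdac1/2-deleted mice (log2 fold change 0.06, SE 0.20, edgeR adjusted p = 0.84, 95% interval -0.40 to 0.51). For none of these 3 genes was a difference shown, and each interval leaves out a 2-fold fall. Per kilobase of exon, which allows levels of different genes to be compared, the control level was 49.9 CPM for Kcnk5, 13.2 for Kcnq1, 12.5 for Kcne3, 11.2 for Kcnk1 and 5.46 for Kcnn4.

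Kcnk6 (TWIK-2), a relative of Kcnk1 (ENSMUSG00000046410, chromosome 7, 29221926 to 29232515), was the abundant channel gene that rose. It had 10.8, 11.7 and 13.1 CPM in the control mice and 24.0, 27.2 and 20.9 CPM in the Hdac1/2-deleted mice, with every Hdac1/2-deleted mouse above every control (log2 fold change 1.02, SE 0.17, edgeR adjusted p = 0.0014). This change lies at the 2-fold limit and was under it without C1 or without H5, at log2 fold changes of 0.97 and 0.93. Cacnb3, a cytoplasmic beta subunit that carries calcium channels to the membrane, had 10.5, 12.2 and 13.5 CPM in the control mice and 6.10, 7.42 and 5.10 CPM in the Hdac1/2-deleted mice (log2 fold change -0.96, SE 0.21, edgeR adjusted p = 0.0065), lower in all 3 mice but just under 2-fold. Without C1 or without H5 it passed, at -1.04 and -1.10.

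**Figure D2:**
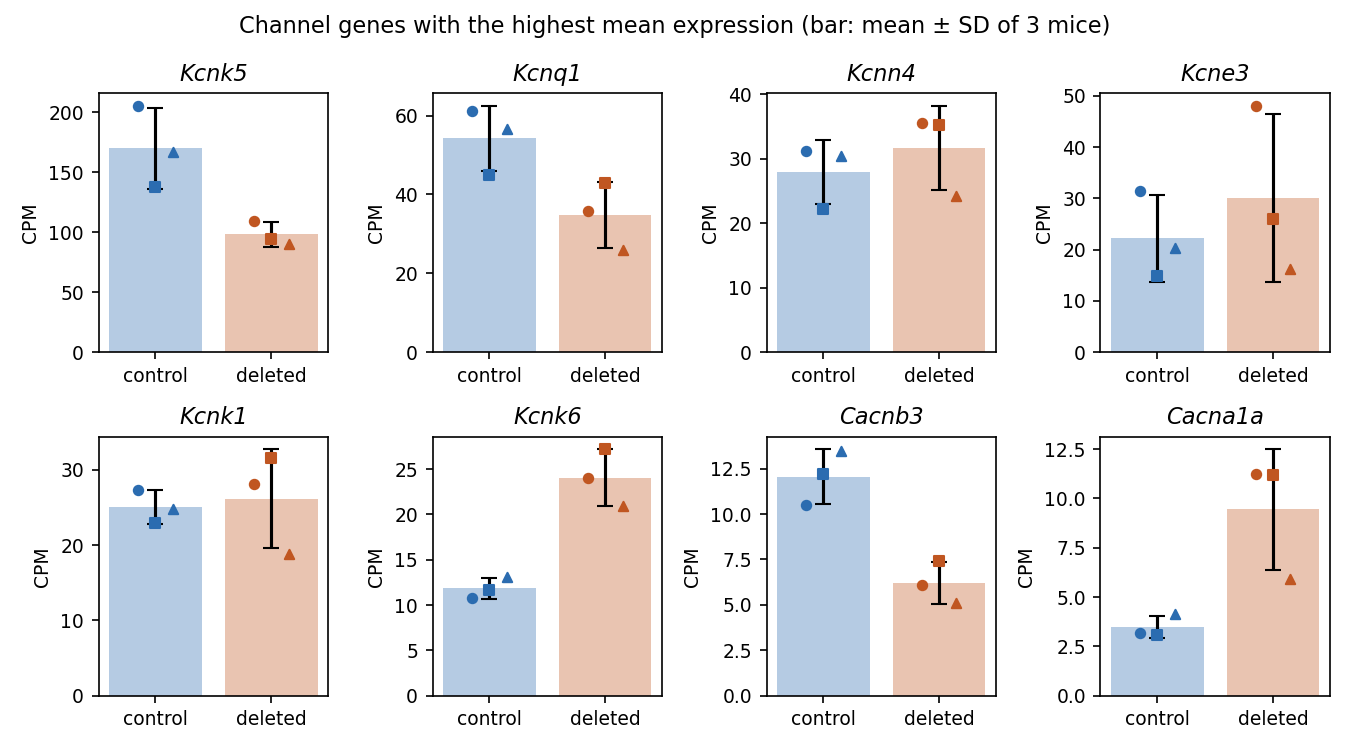
Expression (y axis, CPM, from 0) of the 8 channel genes with the highest mean, in control and Hdac1/2-deleted mice. Bars are means and error bars SD of 3 mice per group, and each point is 1 mouse. Kcnk5, Kcnq1 and Cacnb3 do not overlap and are lower in Hdac1/2-deleted mice, Kcnk6 and Cacna1a do not overlap and are higher, and Kcnn4, Kcne3 and Kcnk1 overlap.

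Among the potassium channels opened by voltage, 3 of the 4 tested genes of the EAG family increased and 0 decreased, beside 12.4% and 12.7% of all genes tested. These subunits carry delayed or rectifying currents in brain and heart. Kcnh1, among the 3, was above the filter in every Hdac1/2-deleted mouse but not in every control. Kcnh2, the hERG channel that ends the heart's action potential (ENSMUSG00000038319, chromosome 5, 24319589 to 24351604), had 0.906, 0.738 and 1.09 CPM in control mice C1, C3 and C3-3 and 3.18, 3.24 and 3.06 CPM in Hdac1/2-deleted mice H1, H5 and H9 (log2 fold change 1.79, SE 0.29, edgeR adjusted p = 0.0013). Kcnh3 (Kv12.2), known from forebrain neurons (ENSMUSG00000037579, chromosome 15, 99224861 to 99242817), had 0.755, 0.738 and 0.564 CPM in the control mice and 3.64, 5.55 and 3.48 CPM in the Hdac1/2-deleted mice (log2 fold change 2.61, SE 0.32, edgeR adjusted p = 3.3e-04). Its exons overlap those of Mcrs1 on the other strand. Kcnh1, the founding EAG channel (ENSMUSG00000058248, chromosome 1, 192190774 to 192510159), had 8, 17 and 7 counts in the control mice and 63, 64 and 73 in the Hdac1/2-deleted mice (log2 fold change 2.72, SE 0.50, edgeR adjusted p = 0.0026). Levels of these 3 genes were separate between groups in every mouse, and Kcnh6, the other gene tested, was level at 1.89, 1.67 and 1.81 CPM in the control mice and 1.84, 1.63 and 2.00 CPM in the Hdac1/2-deleted mice (log2 fold change 0.03, SE 0.27, edgeR adjusted p = 0.94, 95% interval -0.59 to 0.64). Kcnh8 was not tested, with 10, 4 and 3 counts in the control mice and 4, 1 and 4 in the Hdac1/2-deleted mice.

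The Kv pore subunits and the silent subunits that join them were sparse. Kcng3 (Kv6.3), which forms no channel alone but joins other Kv subunits (ENSMUSG00000045053, chromosome 17, 83585957 to 83631895), had 18, 11 and 14 counts in the control mice and 87, 93 and 127 in the Hdac1/2-deleted mice (log2 fold change 2.94, SE 0.41, edgeR adjusted p = 6.6e-04). It was higher in each Hdac1/2-deleted mouse than in any control. Of the 6 tested Kv pore genes, 2 were increased and 0 decreased, and of the 3 tested silent genes, 1 was increased and 0 decreased. The shares over all genes tested were 12.4% increased and 12.7% decreased.

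Sodium-activated potassium channels rose from near silence. Kcnt2 (Slick; ENSMUSG00000052726, chromosome 1, 140246158 to 140612067) had 1, 4 and 0 counts in the control mice and 59, 30 and 31 in the Hdac1/2-deleted mice (log2 fold change 4.50, SE 0.75, edgeR adjusted p = 0.0016). Kcnt1 (Slack; ENSMUSG00000058740, chromosome 2, 25863734 to 25918273) had 3, 3 and 5 counts in the control mice and 42, 13 and 13 in the Hdac1/2-deleted mice (log2 fold change 2.53, SE 0.59, edgeR adjusted p = 0.0081). For each of them every Hdac1/2-deleted mouse was above every control, though Kcnt1 lost its call without C1 and C3 (log2 fold change 1.99). For Kcnt2, C1 and C3-3 lie under the floor of 3 counts, so that the size of its rise is poorly measured (95% interval 2.80 to 6.20). Kcnu1 (Slo3), the alkaline-sensitive channel of the same family known from sperm (ENSMUSG00000031576, chromosome 8, 25849623 to 25937939), went the other way. It had 1.30, 1.37 and 2.13 CPM in the control mice and 0.256, 0.184 and 0.195 CPM in the Hdac1/2-deleted mice (log2 fold change -2.88, SE 0.39, edgeR adjusted p = 5.6e-04). Kcnma1, the BK channel pore opened by calcium and voltage, had 36, 7 and 22 counts in the control mice and 22, 11 and 15 in the Hdac1/2-deleted mice, which overlap (log2 fold change -0.39, SE 0.55, edgeR adjusted p = 0.60, 95% interval -1.63 to 0.85).

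KCNE subunits are short single-pass proteins that change the gating of Kcnq1 and other Kv channels. Kcne1l, also called Kcne5 (ENSMUSG00000090122, chromosome X, 142304752 to 142306294), was absent from the counts of all 3 controls and had 40, 9 and 36 counts in H1, H5 and H9, at least 8.74-fold higher against a floor of 3 counts in each control library (edgeR adjusted p = 0.0012). Kcne1 was at 0 in the controls and had 14, 6 and 2 counts in H1, H5 and H9. It was not tested under the filter, and the bound against the same floor is at least 2.44-fold. Kcnq1ot1 (ENSMUSG00000101609, chromosome 7, 143203458 to 143296549) had 3, 6 and 7 counts in the control mice and 44, 66 and 70 in the Hdac1/2-deleted mice (log2 fold change 3.59, SE 0.59, edgeR adjusted p = 0.0014). Its RNA, which silences neighbours of Kcnq1 on the paternal chromosome, rose in all 3 mice while Kcnq1 was lower. Without the strand setting, reads in the exons of Kcnq1 that it overlaps cannot be told apart.

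Inward rectifiers, which pass potassium more readily into the cell, and two-pore-domain channels, which leak it at rest, moved in both directions. Kcnj10 (Kir4.1), known from glia and kidney (ENSMUSG00000044708, chromosome 1, 172341210 to 172374085), had 9, 14 and 2 counts in the control mice and 23, 31 and 52 in the Hdac1/2-deleted mice (log2 fold change 2.18, SE 0.66, edgeR adjusted p = 0.027). The call was lost without C1, C3-3, H5 or H9, with an adjusted p of up to 0.085, and the log2 fold change was 2.84 without C3. Kcnj2 (Kir2.1), a strong rectifier that sets the resting potential (ENSMUSG00000041695, chromosome 11, 111066164 to 111076821), had 5.15, 3.96 and 5.40 CPM in the control mice and 1.69, 0.132 and 0.276 CPM in the Hdac1/2-deleted mice (log2 fold change -2.74, SE 0.81, edgeR adjusted p = 0.032). All Hdac1/2-deleted mice were below the controls, with H1 well above H5 and H9, and the call was lost with library totals alone as scaling (adjusted p = 0.0501) and without C1, C3, C3-3 or H9 (0.063 to 0.088), and also without C1 and C3 together (0.19). Without H1 the log2 fold change was -4.50. Kcnk10 (TREK-2), opened by stretch and lipids (ENSMUSG00000033854, chromosome 12, 98429437 to 98578310), had 6.10, 8.28 and 5.78 CPM in the control mice and 2.55, 1.05 and 1.61 CPM in the Hdac1/2-deleted mice (log2 fold change -1.94, SE 0.35, edgeR adjusted p = 0.0024). Kcnj11 (Kir6.2), the pore of the ATP-sensitive channel of hormone-releasing cells, had 15, 9 and 10 counts in the control mice and 29, 7 and 9 in the Hdac1/2-deleted mice (log2 fold change 0.35, SE 0.51, edgeR adjusted p = 0.62). Its partner Abcc8 had 88, 102 and 108 counts in the control mice and 88, 78 and 88 in the Hdac1/2-deleted mice (log2 fold change -0.16, SE 0.34, edgeR adjusted p = 0.74). Kcnj15 had 2, 5 and 10 counts in the controls and 0 in each Hdac1/2-deleted mouse, and Kcnj16 had 6, 3 and 2 counts in the control mice and 10, 5 and 2 in the Hdac1/2-deleted mice. Neither was tested.

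Of the sodium channel genes, Scn3a (Nav1.3), the sodium channel known from enteroendocrine cells, had 1.22, 0.846 and 1.15 CPM in the control mice and 1.24, 0.711 and 0.683 CPM in the Hdac1/2-deleted mice, which overlap (log2 fold change -0.28, SE 0.37, edgeR adjusted p = 0.58, 95% interval -1.13 to 0.57). The beta subunit Scn2b had 28, 23 and 38 counts in the control mice and 30, 6 and 18 in the Hdac1/2-deleted mice, which do not overlap as CPM (log2 fold change -0.82, SE 0.47, edgeR adjusted p = 0.20, 95% interval -1.89 to 0.26), and Scn7a, Scn8a and Scn3b were not tested.

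Of the 11 voltage-gated calcium channel genes tested, 5 were increased and 1 was decreased, beside 12.4% and 12.7% of all genes tested. Cacna1g, among the 5, was above the filter in every Hdac1/2-deleted mouse but not in every control. The T-type pore genes, whose channels open near the resting potential, both rose. Cacna1g (Cav3.1; ENSMUSG00000020866, chromosome 11, 94408391 to 94474198) had 8, 4 and 2 counts in the control mice and 96, 37 and 119 in the Hdac1/2-deleted mice (log2 fold change 4.13, SE 0.53, edgeR adjusted p = 3.9e-04). Cacna1h (Cav3.2; ENSMUSG00000024112, chromosome 17, 25374285 to 25433783) had 2.28, 2.12 and 1.60 CPM in the control mice and 4.88, 6.34 and 5.62 CPM in the Hdac1/2-deleted mice (log2 fold change 1.49, SE 0.26, edgeR adjusted p = 0.0020), and overlaps the mast cell tryptase gene Tpsg1 on the other strand. Cacna1i, the other T-type gene, had 1, 6 and 3 counts in the control mice and 1, 1 and 5 in the Hdac1/2-deleted mice and was not tested.

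Cacna1a, the P/Q-type channel that triggers transmitter release (ENSMUSG00000034656, chromosome 8, 84388440 to 84640246), had 3.18, 3.10 and 4.12 CPM in the control mice and 11.2, 11.2 and 5.92 CPM in the Hdac1/2-deleted mice (log2 fold change 1.44, SE 0.29, edgeR adjusted p = 0.0043). H9 was the lowest of its group and still above all controls. Cacna1b, the N-type channel, did not overlap either but missed the limit (log2 fold change 1.11, SE 0.44, edgeR adjusted p = 0.074). Cacna2d2, an alpha2delta subunit that brings channels to the surface (ENSMUSG00000010066, chromosome 9, 107399612 to 107529343), had 1.24, 1.26 and 1.52 CPM in the control mice and 5.21, 3.74 and 5.46 CPM in the Hdac1/2-deleted mice (log2 fold change 1.84, SE 0.28, edgeR adjusted p = 9.2e-04), whereas Cacna2d1 had 1.30, 1.01 and 0.865 CPM in the control mice and 1.498, 1.39 and 1.28 CPM in the Hdac1/2-deleted mice (log2 fold change 0.39, SE 0.32, edgeR adjusted p = 0.35, 95% interval -0.32 to 1.11). Cacnb1, the beta subunit of skeletal muscle, outside the rule for named genes and given to complete the list, had 0.694, 0.972 and 1.47 CPM in the control mice and 2.83, 2.74 and 2.89 CPM in the Hdac1/2-deleted mice (log2 fold change 1.44, SE 0.34, edgeR adjusted p = 0.0087). Cacnb1 thus rose while its relative Cacnb3 was lower.

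**Figure D3:**
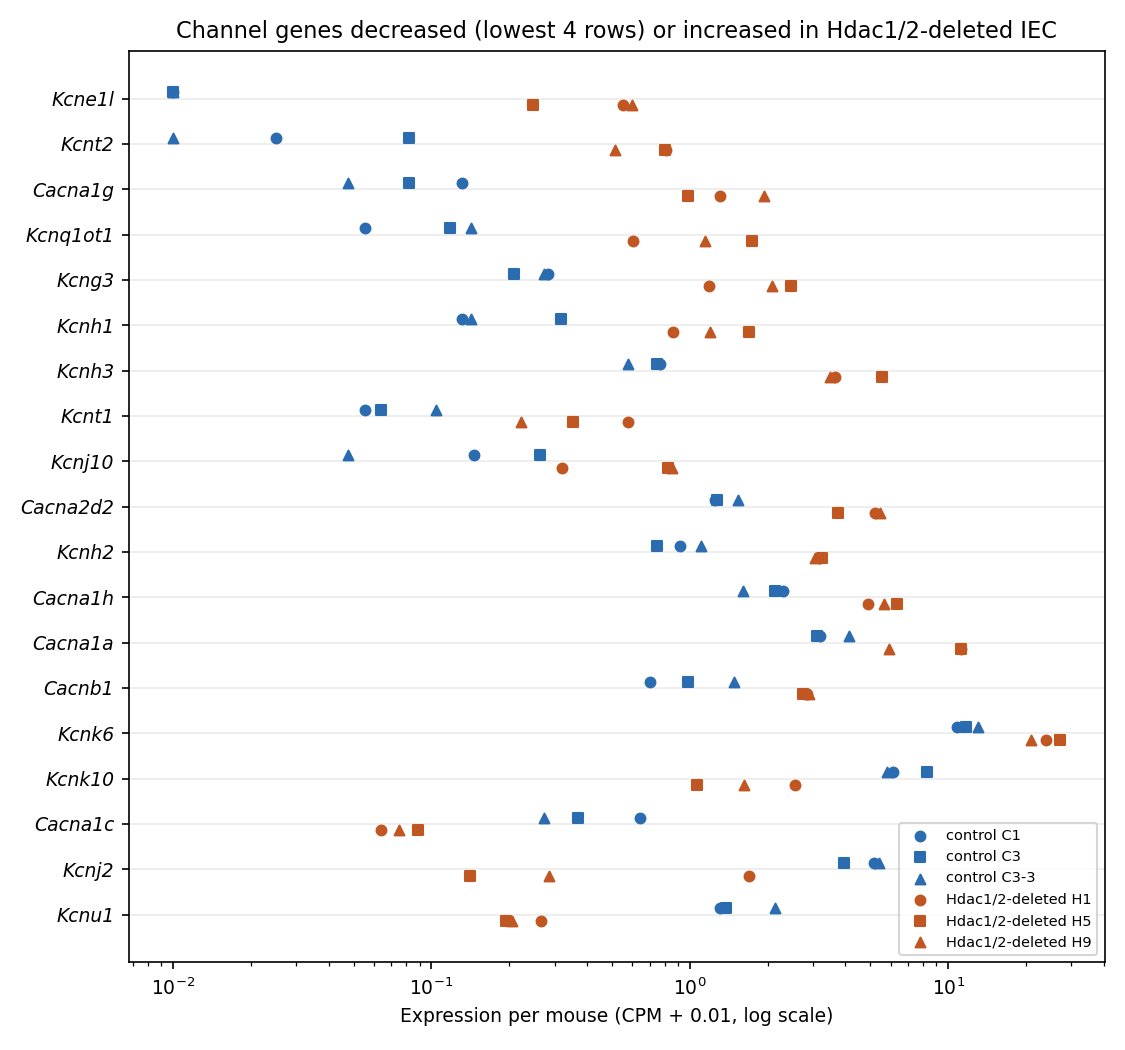
Expression of 19 called genes in each mouse (x axis, CPM plus 0.01 on a log scale), 1 gene per row, blue for control and orange for Hdac1/2-deleted mice. The 15 upper rows are increased and the 4 lower rows decreased; in every row the orange and blue points are separate, and Kcne1l and Kcnt2 have controls at or near 0.

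Channel genes near silent in controls, at 10 counts or fewer in each control library, numbered 29 of the 84. Of these, 6 were increased, among them Kcne1l, Kcnt2, Cacna1g, Kcnq1ot1 and Kcnt1. Genes chosen for low control counts have little room to be called decreased. The 6 also passed the filter only through the Hdac1/2-deleted mice, so that their number describes levels and gives no share or direction. A further 2, Cacng4 among them, were tested and not called, and 21 were not tested. For scale, the named ones reached 0.373 to 1.40 CPM on average in Hdac1/2-deleted mice, far below the 98.2 CPM of Kcnk5. Per kilobase of exon, Kcne1l reached 0.294 CPM and Kcnt2 0.101, against 28.8 for Kcnk5.

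Markers of nerve and hormone cells were measured beside these genes, because many of them are known from such cells. For comparison, 12.4% of all genes tested were increased and 12.7% decreased. Enteric neuron markers, 11 of 14 in the table, summed to 2.03 to 4.54 CPM in controls and 5.14 to 8.0 CPM in Hdac1/2-deleted mice. Of the 6 tested, Tubb3 alone was increased (log2 fold change 2.81), and the sums without it overlapped, at 1.73 to 4.06 CPM and 3.32 to 3.63 CPM. Nefm and Snap25 were also higher without overlap but were not called (log2 fold changes 0.82 and 0.39). Chat, not tested, went the other way, with 10, 10 and 9 counts in controls and 1, 0 and 0 in Hdac1/2-deleted mice. Enteroendocrine markers summed to 1079 to 1265 CPM and 1270 to 1685 CPM, with 2 increased (11.1%) and 5 decreased (27.8%) of 18. The higher sum rested on Sct, the hormone secretin, at a mean of 42.6 CPM in controls and 718 CPM in Hdac1/2-deleted mice, and the other 17 summed to 1042 to 1211 CPM and 701 to 887 CPM. Glial markers summed to 1.02 to 3.12 CPM and 1.34 to 2.04 CPM, with 0 of 2 tested called in either direction at the limits used. Sox10, not tested, had 9, 2 and 0 counts in controls and 0 in every Hdac1/2-deleted mouse. S100b went the other way, with 14, 7 and 0 counts in controls and 30, 12 and 14 in Hdac1/2-deleted mice (log2 fold change 1.44, edgeR adjusted p = 0.18). Tuft cell markers summed to 30.1 to 60.8 CPM and 28.9 to 36.1 CPM, with 1 of 8 tested increased (12.5%) and 6 decreased (75.0%). Without the increased gene, Trpm5, they summed to 24.8 to 46.7 CPM and 5.45 to 7.54 CPM. The part of these cells in the channel changes was not tested.

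Cacna1c (Cav1.2), the L-type channel of smooth and heart muscle (ENSMUSG00000051331, chromosome 6, 118587240 to 119196418), was the calcium channel gene that fell. It had 42, 20 and 14 counts in the control mice and 4, 3 and 4 in the Hdac1/2-deleted mice (log2 fold change -2.67, SE 0.55, edgeR adjusted p = 0.0044), lower in each Hdac1/2-deleted mouse than in any control and not called without C1 and C3 (log2 fold change -1.98, adjusted p = 0.15). All 7 tested smooth muscle markers fell as well, beside 12.7% of all genes tested, with a median log2 fold change of -6.35. The 8 markers summed to 75.7, 58.3 and 3.22 CPM in C1, C3 and C3-3, where Cacna1c had 0.634, 0.360 and 0.263 CPM. In the Hdac1/2-deleted mice the markers summed to 0.459 to 0.601 CPM and Cacna1c had 0.0540 to 0.0790 CPM. The part of muscle cells in the fall of Cacna1c was not tested. Its L-type relative Cacna1d had 21, 20 and 8 counts in the control mice and 25, 14 and 9 in the Hdac1/2-deleted mice (log2 fold change 0.02, SE 0.53, edgeR adjusted p = 0.98, 95% interval -1.18 to 1.23). In such bulk samples fewer cells of a type and less RNA per cell cannot be told apart.

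Other channel genes, some of them known from smooth muscle, did not pass the filter and are named here after their values were seen. Kcns3, a silent subunit, had 165, 115 and 1 counts in the control mice and 4, 1 and 1 in the Hdac1/2-deleted mice, with reads in C1 and C3 as for the muscle markers. Kcnmb1, the BK beta subunit of smooth muscle, had 26, 16 and 2 counts in the control mice and 0, 0 and 0 in the Hdac1/2-deleted mice. Kcnj8 (Kir6.1), the pore of the ATP-sensitive channel of vessels, had 32, 7 and 24 counts in the control mice and 1, 0 and 3 in the Hdac1/2-deleted mice, where C3-3, low in muscle markers, had 24 counts beside 32 in C1. Its partner Abcc9 had 48, 24 and 8 counts in the control mice and 1, 2 and 2 in the Hdac1/2-deleted mice. Scn7a had 18, 13 and 0 counts in the control mice and 3, 0 and 0 in the Hdac1/2-deleted mice. Kcns3, Kcnmb1, Abcc9 and Scn7a were highest in C1, with C3-3 lowest of the controls. The part of muscle cells in these values was not tested.

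**Figure D4:**
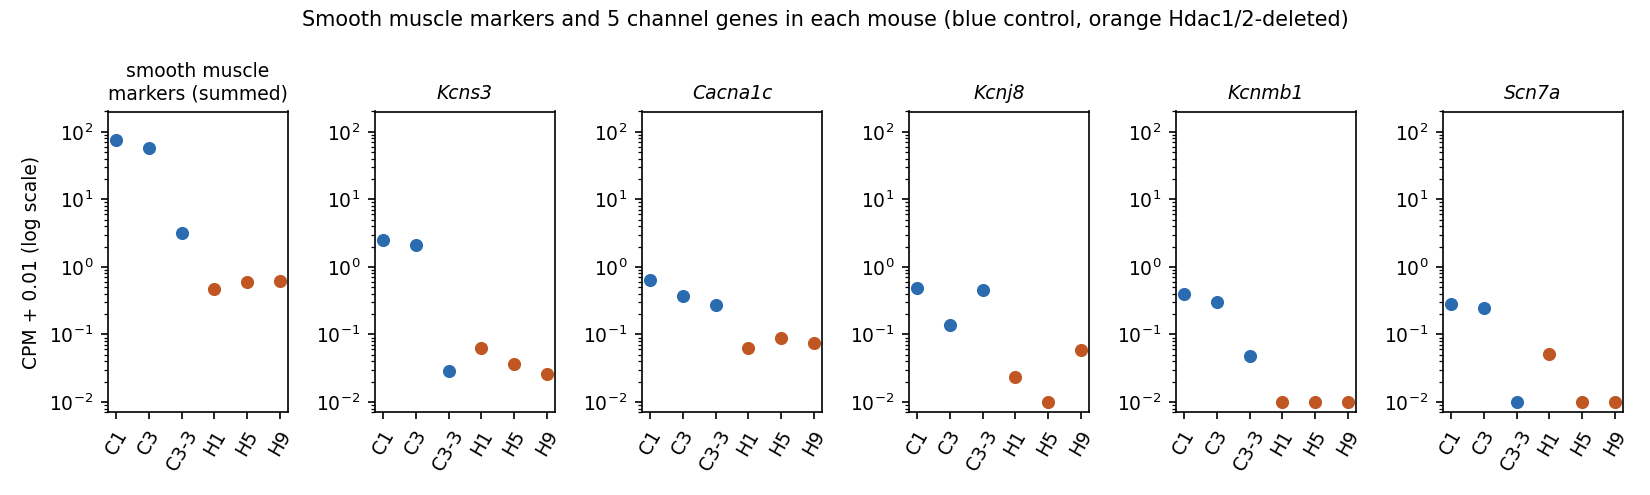
Summed CPM of 8 smooth muscle markers and CPM of Kcns3, Cacna1c, Kcnj8, Kcnmb1 and Scn7a in each mouse (y axis, CPM plus 0.01 on a log scale; x axis, mouse), blue for control and orange for Hdac1/2-deleted mice. The markers sum to 75.7 and 58.3 CPM in C1 and C3, 3.22 CPM in C3-3 and at most 0.601 CPM in the Hdac1/2-deleted mice, and Kcns3, Kcnmb1 and Scn7a share the low value of C3-3.

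Of the 35 genes not tested, 33 had at most 30 counts in every library, and Kcns3 and Kcnj8 reached 165 and 32 in C1. Kcnj12 (Kir2.2), a close relative of Kcnj2, was at 0 in the controls and had 4, 11 and 4 counts in H1, H5 and H9, at least 2.62-fold higher than the floor. Kcnmb1 and Kcnj15, at 0 in all Hdac1/2-deleted mice, were at least 4.27-fold and 1.83-fold lower there. When the filter was dropped, 20 of the 84 channel genes were increased, with Kcne1 and Kcnj12 added. Decreased genes numbered 9, with Kcnd3, Kcnj15, Kcnj8, Kcnmb1 and Kcns3 added. In that fit 2121 of all 19616 genes were increased and 2110 decreased, so that the decreased share of channel genes was near that of all genes.

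Genes of ion transport that the naming rule does not take were followed as a second group. Of 133 such genes in 5 lists, 117 were in the table and 97 could be tested. RNA of 17 rose (17.5%) and of 14 fell (14.4%), near the 12.4% and 12.7% of all genes tested, and the median over the 97 was 0.01 on the log2 scale. Among regulatory subunits, 2 of 13 rose (15.4%) and 3 fell (23.1%). Kcnab3, a Kv beta subunit, had 19, 12 and 15 counts in the control mice and 221, 116 and 150 in the Hdac1/2-deleted mice (log2 fold change 3.42, SE 0.33, edgeR adjusted p = 9.3e-05), and Gem, a small GTPase that blocks calcium channels, had 19, 18 and 22 counts in the control mice and 139, 30 and 104 in the Hdac1/2-deleted mice (log2 fold change 2.09, SE 0.43, edgeR adjusted p = 0.0045). Lrrc26, the gamma subunit that lets BK channels open in secretory epithelium, fell from 22.1 ± 1.51 to 6.57 ± 0.983 CPM (SD, n = 3; log2 fold change -1.75, SE 0.18, edgeR adjusted p = 1.2e-04). Tmem37, a calcium channel gamma-like protein, fell from 215 ± 43.2 to 62.0 ± 8.61 CPM (SD, n = 3; log2 fold change -1.79, SE 0.19, edgeR adjusted p = 1.4e-04). Stac3, which couples the L-type channel of skeletal muscle, had 20, 41 and 21 counts in the control mice and 9, 4 and 4 in the Hdac1/2-deleted mice (log2 fold change -2.27, SE 0.54, edgeR adjusted p = 0.0091), and Kcnab2 was not called (log2 fold change -0.85, SE 0.42, edgeR adjusted p = 0.13).

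Among other cation channels, 8 of 28 rose (28.6%, beside 12.4% of all genes tested) and 2 fell (7.14%, beside 12.7%). Trpv1, the capsaicin receptor, had 13, 11 and 12 counts in the control mice and 154, 75 and 170 in the Hdac1/2-deleted mice (log2 fold change 3.45, SE 0.35, edgeR adjusted p = 1.2e-04). Hcn3, a pacemaker channel opened by hyperpolarization, had 17, 10 and 16 counts in the control mice and 142, 124 and 122 in the Hdac1/2-deleted mice (log2 fold change 3.26, SE 0.40, edgeR adjusted p = 3.2e-04). Cngb1, the cyclic nucleotide-gated subunit of rods, was at 0 in the controls and had 14, 14 and 17 counts in H1, H5 and H9, at least 5.35-fold higher than the floor (edgeR adjusted p = 0.0018). These 3 had at most 17 counts in any control. Asic5, a channel opened by bile acids, had 146, 112 and 119 counts in the control mice and 62, 5 and 20 in the Hdac1/2-deleted mice (log2 fold change -2.26, SE 0.55, edgeR adjusted p = 0.010; log2 fold change -3.17 without H1), and Tmem175, the lysosomal potassium channel, fell (log2 fold change -1.25, SE 0.18, edgeR adjusted p = 7.3e-04).

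The anion channels, 19 tested, held 4 that rose and 4 that fell (21.1% each, beside 12.4% and 12.7% of all genes tested). Lrrc8e, a subunit of the volume-regulated anion channel, had 19, 4 and 12 counts in the control mice and 261, 107 and 143 in the Hdac1/2-deleted mice (log2 fold change 3.86, SE 0.49, edgeR adjusted p = 3.7e-04). Clcn6, an endosomal chloride transporter, rose as well (log2 fold change 1.88, SE 0.24, edgeR adjusted p = 4.1e-04). Ano10, Ano9 and Ano6, of the family of calcium-activated chloride channels and lipid scramblases, fell by 2.02, 1.16 and 1.16 on the log2 scale (edgeR adjusted p = 0.0017, 0.0015 and 0.0048). Cftr, the chloride exit of secretion that depends on the potassium channels above, had 7231, 4795 and 5227 counts in the control mice and 11300, 4410 and 9078 in the Hdac1/2-deleted mice (log2 fold change 0.50, SE 0.16, edgeR adjusted p = 0.030), past the adjusted p limit but under 2-fold.

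Of 27 tested pumps and transporters, 2 rose and 2 fell (7.41% each, below the 12.4% and 12.7% of all genes tested). Slc26a3, the chloride/bicarbonate exchanger of absorbing cells, was among those that fell (log2 fold change -1.32, SE 0.17, edgeR adjusted p = 4.1e-04). The increased genes were S100g, a calcium-binding protein of enterocytes (log2 fold change 1.02, SE 0.26, edgeR adjusted p = 0.013), and Slc8b1, the mitochondrial sodium/calcium exchanger (log2 fold change 1.06, SE 0.19, edgeR adjusted p = 0.0025). Slc12a2, which loads cells with chloride, was lower but under 2-fold (log2 fold change -0.93, SE 0.26, edgeR adjusted p = 0.019). Among 10 regulators of channel delivery, 1 rose (10%, beside 12.4%) and 3 fell (30%, beside 12.7%). Sgk1, a kinase that raises channel and transporter number at the surface, had 64946, 17590 and 12597 counts in the control mice and 2610, 1020 and 1891 in the Hdac1/2-deleted mice (log2 fold change -4.05, SE 0.59, edgeR adjusted p = 0.0022), with C1 far above the other controls and a log2 fold change of -3.15 without it. Ank3, a scaffold that anchors sodium channels, and Akap9, a scaffold of Kcnq1, fell by 3.21 and 1.11 on the log2 scale (edgeR adjusted p = 2.1e-04 and 6.7e-04), and Wnk4, a kinase of ion transport, rose (log2 fold change 2.11, SE 0.27, edgeR adjusted p = 4.6e-04).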

How the data were processed

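Libraries were poly(A)-selected and directional, from RNA with an integrity number over 6.5, and were read as pairs on an Illumina HiSeq4000. According to the methods of the study, STAR was run against GRCm38. The submitters' processing notes name STAR 2.4.0f1, bcl2fastq 1.8.4 and mm9. The counting program, annotation and strand setting are not given in the sources used here. The deposited table holds raw counts for 19616 genes, none with fewer than 10 counts over the 6 samples. The other 12 columns of values, 6 normalized per sample and the rest the authors' own comparison, namely means, fold changes and p-values, were not used.

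In R 4.3.3, counts were fitted in edgeR 4.0.16, which loads limma 3.58.1 (TMM factors 0.892 to 1.14, filterByExpr, robust quasi-likelihood model, prior count 0.125, no covariates) over 15618 genes, with Benjamini-Hochberg adjustment over all of them. The SE is the size of the log2 fold change divided by the square root of F, and 95% intervals take the t distribution at each gene's degrees of freedom in that fit. Genes of 0 counts in a group are given as bounds against a floor of 3 counts per library. The labels give separate mice and no batch. An exact two-sided permutation test of 3 against 3 cannot give a p below 0.10, so the fit over all genes was used. Positions, exon lengths and overlaps come from GENCODE M21 (GRCm38), which may differ from the authors' annotation. The steps were tested on simulated data. Alternatives changed normalization, test, filter, fold rule, adjusted p limit and prior count, used DESeq2 1.42.0, and left out each mouse in turn. Tables and plots used pandas 2.3.3, scipy 1.17.1 and matplotlib 3.10.9 in Python 3.11.15.

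The channel genes, the partner and marker lists and the rule for named genes were chosen with earlier results of these data known. That rule takes up to 15 called genes per direction by size of change, the 10 with the highest mean CPM, 17 with an established role in gut epithelium or its endocrine cells, called or not, and, of partner genes, up to 3 called each way per list with 6 more. Some genes that these rules take are counted in the totals but not reported here by name or drawn in the plots.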

Additional observations from a re-analysis of the deposited data

How the results depend on the processing

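The 18 increased and 4 decreased channel genes were called alike with DESeq2, RLE size factors, a non-robust fit and a prior count of 2. Scaling by library totals alone, which moved the median log2 fold change of all genes from -0.0081 to 0.18 and their calls from 1944 increased and 1990 decreased to 2463 and 1538, gave 18 and 3. Requiring at least 10 counts in every sample left 25 channel genes and gave 9 and 1, since genes near silent in a group were no longer tested. Decreased genes numbered 9 with no filter, when all 84 were tested and 2110 of all 19616 genes were decreased. They numbered 7 with no fold rule, where the 3 more were Cacnb3, Kcnk5 and Kcnq1. At an adjusted p limit of 0.01, 16 and 3 were called. Without C3 alone, the 18 increased genes were called again and Kcnj2 was not. With each mouse left out, increased genes ranged from 16 to 19 and decreased genes from 4 to 7. The count of 7 arose without C3-3, H1 or H5, when the filter let sparse genes such as Kcnmb1 through. Without C1 and C3, chosen after seeing the data, 13 and 4 were called, with Cacnb3 and Kcnj8 in place of Cacna1c and Kcnj2, the lone control being assumed to vary like the other group. Near-silent genes numbered 6 at a limit of 3 counts and 53 at 30.

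No called gene changed sign. Of the genes named here and not called in the first place, Abcc8 changed sign with library totals (0.033). Leaving out 1 mouse moved Abcc8 from -0.40 to 0.0075, Cacna1d from -0.25 to 0.35, Kcne3 from -0.077 to 0.78, Kcnj11 from -0.23 to 0.62, Kcnk1 from -0.090 to 0.25 and Kcnma1 from -0.78 to 0.045. Among partner genes, S100g was under 2-fold without H1 (0.65) and Ano9 without C3 (-0.95), while Kcnab2 passed without C1 (-1.17) and Slc12a2 without C3, C3-3 or H1 (-1.07, -1.04 and -1.15). With library totals, Akap9, Ano6 and Ano9 were under 2-fold (-0.93, -0.98 and -0.96). Without C1 and C3, Gem, S100g, Slc8b1 and Stac3 were not called. No paired analysis was possible because the mice are separate animals and the groups share a single number in their names. Depth limited the sparse genes, of which 35 did not enter the test.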

Other observations

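Partner genes of ion transport that were too sparse to be tested, and were named after their values were seen, included some that were near 0 in controls. Atp12a, the colonic proton pump, had 0, 1 and 0 counts in C1, C3 and C3-3 and 28, 4 and 10 in H1, H5 and H9. Cnga1, which forms the rod channel with Cngb1, had 3, 1 and 2 counts in the controls and 12, 10 and 5 in the Hdac1/2-deleted mice. Fxyd2, a regulator of ion transport in kidney, had 3, 3 and 2 counts in the controls and 5, 7 and 28 in the Hdac1/2-deleted mice. Each of these 3 genes was higher in every Hdac1/2-deleted mouse than in any control, by raw counts. They were picked for this difference and are given with no test. Sparse partner genes also went the other way, such as Asic2, with 7, 7 and 6 counts in the controls and 0, 0 and 3 in the Hdac1/2-deleted mice. Among all genes tested, 26.7% were higher and 26.6% lower in Hdac1/2-deleted mice without overlap.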
